A study of Mus musculus with 6 samples.

Results

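The nuclear genes for subunits of the oxidative phosphorylation complexes were examined in LSECs, the liver sinusoidal endothelial cells, which form the perforated wall of the blood channels in the liver. Members were taken by gene symbol: Nduf genes for complex I, Sdh genes for complex II, Uqcr genes for complex III, the Cox4i, Cox5, Cox6, Cox7 and Cox8 genes for complex IV, and Atp5 genes for complex V. This gave 84 genes of the 34745 listed, with 37 in complex I, 4 in complex II, 8 in complex III, 18 in complex IV and 17 in complex V. A further 4 symbols ending in -ps, with or without a number, were left out as pseudogenes. Symbols place some genes loosely: the Ndufa4 product is known as a complex IV subunit, Cox7a2l is known as a factor that joins complexes into supercomplexes, and Atp5s and Atp5sl are not core subunits of the ATP synthase.

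The cells came from mice of the genotype Tgfbr2f/f, called f/f here, and from mice labelled Tgfbr2 ECKO, an endothelial knockout of a receptor for TGFβ. Both groups had been given CCl4, a liver toxin, by intraperitoneal injection at 2 doses per week for 6 weeks, so no library came from untreated animals, and each genotype had 3 libraries. The sources used here do not give the Cre driver, the strain, the age of the animals or the way the cells were isolated. Nothing in the labels says that the 3 libraries of a group came from separate mice, so p-values measure only the spread between these libraries.

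Oxidative phosphorylation takes place in the inner mitochondrial membrane. Complex I takes electrons from NADH and complex II takes them from succinate, complex III passes them from ubiquinol to cytochrome c, and complex IV hands them to oxygen. Complexes I, III and IV pump protons across the membrane, and complex V, the ATP synthase, uses the return of these protons to make ATP. Each complex except complex II joins subunits encoded in the nucleus with subunits encoded in mitochondrial DNA. Endothelial cells are known to draw much of their ATP from glycolysis, and their mitochondria also serve in signalling and biosynthesis.

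The libraries held between 17171850 and 25062755 counts in genes. Of these counts, mitochondrial transcripts made up 23.5%, 14.2% and 11.5% for f/f libraries 1 to 3, and 32.4%, 19.7% and 23.7% for ECKO libraries 1 to 3. Tgfbr2 stood at 387, 442 and 452 CPM (counts scaled to a common library size) under the f/f label and at 498, 487 and 511 CPM under the ECKO label. Its log2 difference was 0.22 (SE 0.10, edgeR adjusted p = 0.228), and -0.02 with total count scaling, so gene-level counts did not show less Tgfbr2 RNA under the ECKO label, and they cannot test for the loss of single exons. The labelled cell type had its markers: the 18 LSEC marker genes summed to 31362 to 36167 CPM for f/f and 35823 to 41053 CPM for ECKO. CPM values here were scaled by TMM, a method that sets the libraries on a common scale from the bulk of their genes.

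No subunit passed the test between the genotypes, but most subunit RNAs had a slightly higher level in the ECKO libraries on the TMM scale. Of the 84 members, 78 had enough counts to be tested, and 0 were called higher and 0 lower in ECKO by edgeR's quasi-likelihood test at an adjusted p under 0.05. Over all 13692 genes tested, 1.24% were called higher and 2.79% lower, 4.03% in all. The lowest adjusted p of a member was 0.0604, for Ndufv3. At an unadjusted p under 0.05, 21 members (26.9%) had a higher value in ECKO, beside 10.4% of all genes, and 1 member had a lower value, beside 13.1%. DESeq2 called 6 members higher (Ndufa5, Ndufa3, Ndufv3, Ndufb9, Cox7b and Atp5k) and 1 lower (Ndufa4l2). Over all 13692 genes DESeq2 called 470 higher and 1038 lower, 11.0% in both directions together. The 7 of 78 members are a smaller share than that 11.0%. However, 6 of these 7 lay on the higher side, where all genes had fewer calls.

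The calls differed between settings. Members called numbered 0 with RLE scaling (4.05% of all genes called), with TMM computed without mitochondrial genes (3.96%), in limma-voom (2.24%) and with a stricter filter on low counts (4.21%). The stricter filter left 73 members to test. They numbered 1 with total count scaling (9.29%), without the filter (3.63%), and in limma on log2(FPKM + 1) (4.31%) and log2(FPKM + 0.1) (5.46%). Without f/f library 1, 1 member and 7.22% of all genes were called. Without f/f library 2 or 3, or ECKO library 1, 2 or 3, 0 members were called, and the shares of all genes were 1.78%, 0.658%, 0.249%, 1.37% and 0.775%. The single member called was Ndufa5, with a higher value, without the filter and without f/f library 1, and Ndufa4l2, with a lower value, in the others.

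The log2 difference of ECKO against f/f lay above 0 for 66 of the 78 members (84.6%), beside 51.4% of all genes. Its median was 0.23 over the members and 0.01 over all genes. For 35 members (44.9%) each ECKO library lay above each f/f library, beside 15.7% of all genes. The reverse held for 1 member, Ndufa4l2, beside 15.2%. Medians by complex were 0.26 for complex I, 0.14 for complex II, 0.18 for complex III, 0.26 for complex IV and 0.18 for complex V.

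**Figure D1:**
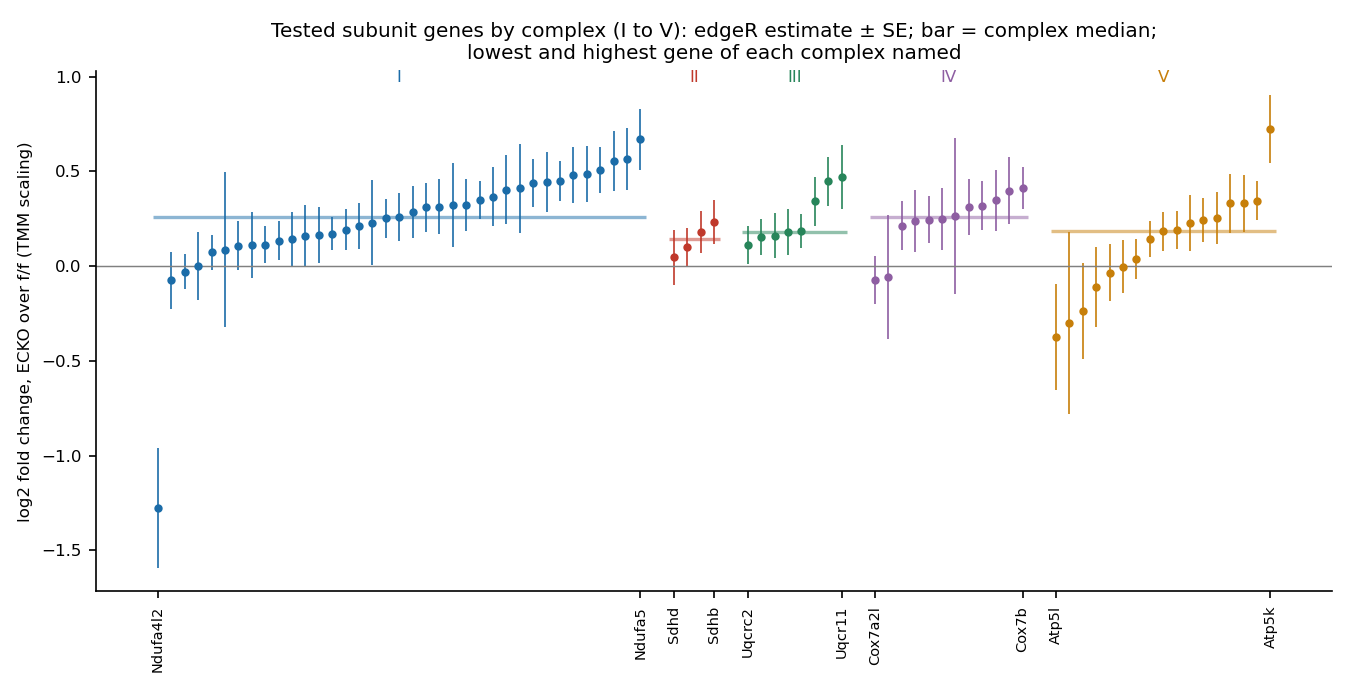
Log2 difference of each tested subunit gene between ECKO and f/f libraries (3 against 3, edgeR, TMM scale), with SE bars, grouped by complex, with the median of each complex as a line and the lowest and highest gene of each complex named. Most points lie between 0 and 0.5, and Ndufa4l2 in complex I stands apart at -1.27.

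The sign of these differences depended on the scale. When libraries were scaled by their total counts instead of TMM, the median of the members was -0.0022 and that of all genes was -0.22. On that scale 37 members (47.4%) had a value above 0, beside 22.4% of all genes, 41 had one below 0, and 29 members changed sign. All ECKO libraries lay above all f/f libraries for 1 member (1.28%), beside 2.03% of all genes, and below them for 2 members (2.56%), beside 27.7%. The members' median stood 0.22 above the median of all genes on both scales. A change of scale moves all genes by nearly the same amount, so these are not 2 separate results. The total count includes the mitochondrial transcripts, whose share differed between the libraries as given above. Over all genes the calls at an adjusted p under 0.05 were 170 higher and 382 lower on the TMM scale and 63 higher and 1209 lower on the total count scale. Values below are on the TMM scale unless another is named.

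One library also weighed on the size. ECKO library 2 had the highest value of its group for 69 of the 78 members, and f/f library 2 for 56 of them. Relative to the f/f mean, the median log2 value of the members was -0.02, 0.09 and -0.04 in f/f libraries 1 to 3 and 0.13, 0.42 and 0.14 in ECKO libraries 1 to 3. Each ECKO library thus had a higher median than each f/f library, but ECKO libraries 1 and 3 lay close to f/f library 2. Without ECKO library 2 the median over the members was 0.14, which is 0.12 above that of all genes instead of 0.22. In that setting 14 members (17.9%) had an unadjusted p under 0.05 with a higher value in ECKO, beside 9.27% of all genes.

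**Figure D2:**
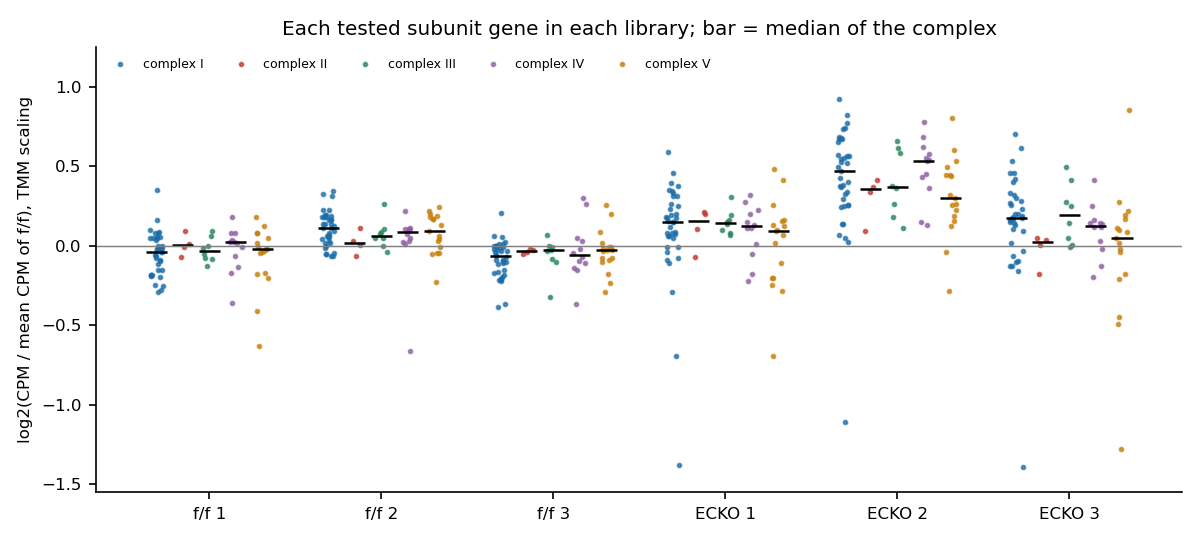
Log2 value of each tested subunit gene relative to its f/f mean (TMM CPM), shown for each of the 6 libraries by complex. ECKO library 2 is high throughout, with a median of 0.42, while ECKO libraries 1 and 3 have medians of 0.13 and 0.14.

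Summed over its members, complex I stood at 1095, 1197 and 1079 CPM for f/f and at 1246, 1496 and 1256 CPM for ECKO. The groups did not overlap, with means of 1124 ± 64.0 and 1333 ± 142 (SD, n = 3 each). Complex III stood at 483, 507 and 483 CPM against 540, 620 and 550 CPM, again with no overlap. Complex II stood at 375, 362 and 356 CPM against 403, 425 and 361 CPM, where ECKO library 3 lay below f/f libraries 1 and 2. Complex IV stood at 739, 802 and 698 CPM against 799, 1052 and 791 CPM, and its overlap came from f/f library 2. Complex V stood at 1323, 1378 and 1273 CPM against 1386, 1602 and 1378 CPM, and f/f library 2 and ECKO library 3 nearly coincided. On the total count scale the groups overlapped in all 5 complexes.

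**Figure D3:**
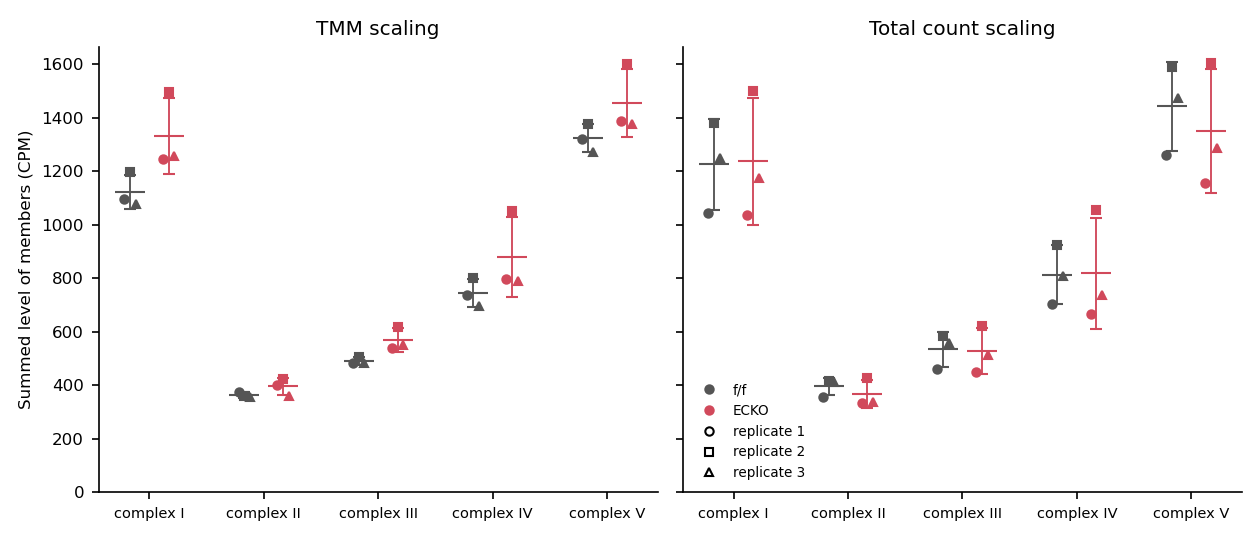
Summed level of the subunit genes of each complex in each library (CPM), with group means and SD (n = 3 each), on the TMM scale at left and the total count scale at right. On the TMM scale the groups are apart for complexes I and III and overlap for complexes II, IV and V; on the total count scale they overlap in all 5.

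Complex I holds the largest number of subunits. Its 7 nuclear core subunits carry the flavin and the iron-sulphur clusters that pass electrons from NADH to ubiquinone, and their log2 differences ran from 0.07 to 0.44 with a median of 0.17. Ndufv1, the flavin-binding subunit that receives electrons from NADH, averaged 39.6 ± 1.75 CPM in f/f and 42.9 ± 2.51 in ECKO (log2 difference 0.11, edgeR adjusted p = 0.505). Ndufs1, the large iron-sulphur subunit, averaged 46.7 ± 2.67 and 49.2 ± 1.78 CPM (0.07, edgeR adjusted p = 0.662).

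The 28 supernumerary subunits of complex I, which surround the core and are needed for its assembly and stability, had a median log2 difference of 0.29, from -0.07 to 0.67. Ndufa5, a subunit of the matrix arm, stood at 15.6, 13.95 and 12.3 CPM in f/f and at 21.0, 26.4 and 19.2 CPM in ECKO. All ECKO libraries lay above all f/f libraries, with a log2 difference of 0.67 (SE 0.16, edgeR adjusted p = 0.0636). Ndufa5 passed in DESeq2 (adjusted p = 0.0136), without the filter on low counts (0.0421, edgeR) and without f/f library 1 (0.0473, edgeR), and its adjusted p over all settings ran from 0.0136 to 0.203. Ndufv3, an accessory subunit beside the flavin site, stood at 25.7, 27.9 and 27.0 CPM against 33.4, 39.8 and 37.0 CPM, with no overlap. Its log2 difference was 0.45 (SE 0.11, edgeR adjusted p = 0.0604, with 0.0185 to 0.527 over the other settings). Ndufa3, a membrane-arm subunit, stood at 14.6, 15.6 and 14.5 CPM against 18.9, 21.8 and 22.8 CPM. Its log2 difference was 0.51 (SE 0.12, edgeR adjusted p = 0.0616, with 0.0190 to 0.441 over the other settings). Ndufa6 and Ndufa8 had the highest levels per length in complex I and were close to each other. Ndufa8 averaged 90.8 ± 21.4 FPKM in f/f and 83.1 ± 24.6 in ECKO. Ndufa6, which averaged 90.6 ± 19.9 and 84.8 ± 20.0 FPKM, overlapped between the groups (log2 difference of counts 0.14, edgeR adjusted p = 0.586). FPKM is the count per kilobase of gene length and per unit of the library's total count. Orders by FPKM therefore depend on the length behind it, which was 560 bases for Ndufa6, 861 for Ndufa8 and 4864 for Ndufb7.

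The Ndufa4 pair went in opposite directions by value. Ndufa4 stood at 40.4, 47.2 and 43.3 CPM in f/f and at 60.0, 72.8 and 49.6 CPM in ECKO (log2 difference 0.48, SE 0.15, edgeR adjusted p = 0.112). Its paralogue Ndufa4l2, known as a hypoxia-induced gene that lowers complex I activity, stood at 1.84, 2.80 and 2.11 CPM in f/f and at 0.865, 1.05 and 0.860 CPM in ECKO. The ECKO libraries held only 13, 18 and 15 counts of it. Its log2 difference was -1.27 (SE 0.32) with an edgeR adjusted p of 0.0668. Ndufa4l2 passed in DESeq2 (adjusted p = 0.0231), on the total count scale (edgeR, -1.52, adjusted p = 0.0410) and in limma on log2(FPKM + 1) (-0.90, adjusted p = 0.0276) and log2(FPKM + 0.1) (-1.41, adjusted p = 0.0183). Over the settings that tested Ndufa4l2 its adjusted p ran from 0.0183 to 0.189, and the stricter filter on low counts left it out. As a share of the pair's summed FPKM, Ndufa4l2 was 11.3%, 14.2% and 11.99% for f/f against 3.87%, 3.86% and 4.62% for ECKO, and the groups did not overlap. A share within one library does not depend on how libraries are scaled. It does depend on the lengths behind FPKM, 960 bases for Ndufa4l2 and 2680 for Ndufa4, and by CPM the share of Ndufa4l2 was smaller. Stellate cell markers also had lower values in ECKO (median log2 difference -1.11). Any part of such cells in the Ndufa4l2 level was not tested.

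Complex II, succinate dehydrogenase, is also an enzyme of the citric acid cycle and is built from 4 nuclear subunits. Sdha, the flavoprotein that oxidises succinate, stood at 212, 191 and 194 CPM in f/f and at 229, 212 and 200 CPM in ECKO, with overlap (log2 difference 0.10, SE 0.10, edgeR adjusted p = 0.564). Sdhb, the iron-sulphur subunit, averaged 41.1 ± 0.800 and 48.3 ± 6.17 CPM (0.23, edgeR adjusted p = 0.263). The membrane anchors Sdhc and Sdhd had log2 differences of 0.18 and 0.05 (edgeR adjusted p = 0.353 and 0.866). Sdhd had the highest level per length of the 4, at 50.2 ± 7.87 FPKM in f/f and 44.2 ± 12.1 in ECKO.

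Complex III, the cytochrome bc1 complex, had 8 tested members, all with log2 differences above 0, from 0.11 to 0.47. Uqcr11, a small subunit at the edge of the complex, stood at 23.9, 28.8 and 19.2 CPM in f/f and at 29.6, 37.9 and 31.9 CPM in ECKO. Its groups were just apart, and the log2 difference was 0.47 (SE 0.17, edgeR adjusted p = 0.151). Uqcrb, a subunit near the ubiquinone site and the member of complex III with the highest level per length (58.2 ± 7.53 FPKM in f/f), averaged 58.8 ± 3.48 and 74.5 ± 11.8 CPM (0.34, edgeR adjusted p = 0.163). The Rieske iron-sulphur protein Uqcrfs1 averaged 46.5 ± 2.44 and 51.9 ± 7.09 CPM (0.16, edgeR adjusted p = 0.449). The large core proteins gave log2 differences of 0.19 for Uqcrc1 and 0.11 for Uqcrc2 (edgeR adjusted p = 0.253 and 0.542). Uqcrc1 libraries were apart, at 125, 117 and 118 CPM against 133, 144 and 133 CPM.

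Complex IV, cytochrome c oxidase, has several subunits with paralogues that differ between tissues. Of its 18 members 12 were tested. Cox7b, which is present in all tissues, stood at 41.1, 43.4 and 36.8 CPM in f/f and at 48.9, 58.7 and 53.9 CPM in ECKO, with no overlap (log2 difference 0.41, SE 0.11, edgeR adjusted p = 0.0823, with 0.0469 to 0.600 over the other settings). Cox6a1, the isoform of liver and most tissues, stood at 127, 130 and 120 CPM against 145, 216 and 136 CPM, with ECKO library 2 far above the rest (log2 difference 0.40, edgeR adjusted p = 0.220). Cox8a, another liver-type isoform, stood at 75.3, 77.8 and 68.6 CPM against 80.02, 113 and 81.6 CPM (0.31, edgeR adjusted p = 0.253). Cox4i1, the common regulatory subunit, stood at 146, 161 and 107 CPM against 151, 186 and 155 CPM, with overlap (0.25, edgeR adjusted p = 0.395). Cox7a2l stood at 131, 159 and 152 CPM against 130, 161 and 128 CPM (-0.07, edgeR adjusted p = 0.761).

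Per length, complex IV held the members with the highest levels: Cox8a at 148 ± 16.5 FPKM, Cox6b1 at 146 ± 22.0, Cox7a2l at 141 ± 27.8 and Cox6a1 at 115 ± 11.99 in f/f. Within f/f, neighbours in this order differed by less than the larger of their SDs. The order also depends on the lengths used, which were 505 bases for Cox6b1 and 545 for Cox8a but 4956 for Cox6c. In f/f, Cox6c averaged 42.3 CPM but 9.30 FPKM. The 6 untested members were all of complex IV, and Cox8b, Cox8c and Cox7b2 had no count in any library. A count of 0 allows a level of up to 3 counts, which is 0.124 to 0.200 CPM in these libraries. The muscle-type isoform Cox7a1 had 5, 4 and 4 counts in f/f and 3, 2 and 0 in ECKO, and Cox6a2 had 1 count in each of 2 libraries. Cox4i2, the isoform of lung and of oxygen-sensing cells, had 0, 4 and 5 counts in f/f and 0, 0 and 1 in ECKO. Cox4i2 was thus at most 0.439% of the Cox4i FPKM, and Cox7a1 at most 1.31% of the Cox7a pair's FPKM. The ubiquitous or liver-type isoforms were the main ones in every library of both genotypes.

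**Figure D4:**
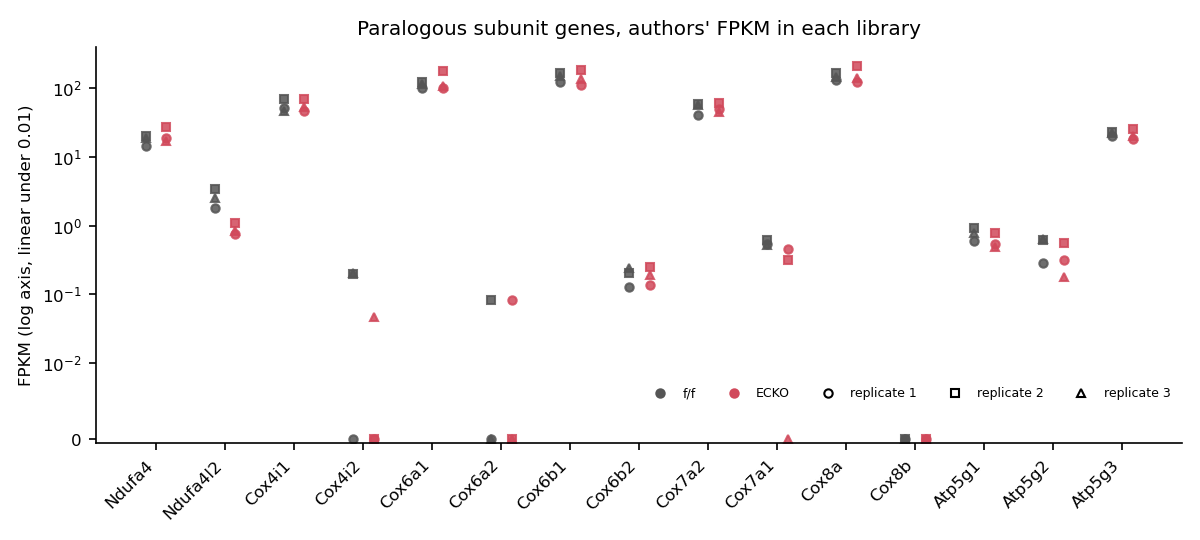
The authors' FPKM of paralogous subunit genes in each library (vertical log axis that turns linear near 0), f/f in grey and ECKO in red, with a marker shape for each replicate. All f/f points of Ndufa4l2 lie above all its ECKO points, Cox8b is at 0 in all libraries, and Atp5g3 lies far above Atp5g1 and Atp5g2 in both groups.

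Complex V, the ATP synthase, had 17 tested members, 11 with log2 differences above 0. The catalytic head is formed by the products of Atp5a1 and Atp5b, which had similar levels per length (68.9 ± 10.6 and 66.0 ± 5.28 FPKM in f/f). Atp5b stood at 435, 407 and 418 CPM in f/f and at 450, 491 and 450 CPM in ECKO, just apart (log2 difference 0.14, SE 0.09, edgeR adjusted p = 0.387). Atp5a1 stood at 324, 364 and 310 CPM against 337, 363 and 324 CPM, with overlap (0.04, SE 0.10, edgeR adjusted p = 0.854). Atp5k, the small membrane subunit e that helps the enzyme to dimerise, stood at 8.57, 9.09 and 6.63 CPM against 11.3, 14.1 and 14.6 CPM. It had the highest log2 difference of all members, 0.72 (SE 0.18), at an edgeR adjusted p of 0.0673, with 0.0141 (DESeq2) to 0.212 over the other settings. Atp5j, a subunit of the peripheral stalk, stood at 50.1, 53.4 and 50.2 CPM against 61.2, 72.2 and 61.9 CPM, with no overlap (0.35, SE 0.10, edgeR adjusted p = 0.0991). Atp5sl gave 0.33 (edgeR adjusted p = 0.231).

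The c ring, the rotor that protons turn, is encoded by 3 genes for the same mature protein. Atp5g3 made up 95.9%, 93.8% and 94.0% of their FPKM in f/f and 95.6%, 95.0% and 96.8% in ECKO, so the groups overlapped. These shares depend on the lengths behind FPKM, 9797 bases for Atp5g1, 2111 for Atp5g2 and 2931 for Atp5g3. In f/f, Atp5g1 averaged 6.88 CPM, Atp5g2 0.972 and Atp5g3 59.5, so the share of Atp5g1 was larger by count. By count, Atp5g3 had a log2 difference of 0.18, Atp5g1 of -0.11 and Atp5g2 of -0.30 (edgeR adjusted p = 0.310, 0.781 and 0.732). Atp5l, the membrane subunit g, had the lowest value in complex V at -0.37 (SE 0.28, edgeR adjusted p = 0.454).

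Reads of some members can also match other genes. Many subunit genes have processed copies elsewhere in the genome, and the sources used here do not say how the authors counted such reads. The coding sequence of each member was therefore cut into all runs of 50 bases, and these were looked for in the transcripts of all other genes of GENCODE M21 (GRCm38). Of the 78 tested members, 5 shared over 80% of these runs with another gene: Atp5g2, Atp5l, Ndufb4, Atp5g1 and Cox7c. These 5 averaged between 0.880 and 6.62 CPM over all libraries, while the 37 members that shared none had a median of 41.4 CPM. The 7 members that shared over 50% and up to 80% averaged between 10.7 and 143 CPM. In all, 9 members averaged under 10 CPM, and 5 of them were the members named here. Their levels, and the Atp5g shares above, are uncertain for this reason. Leaving out all members that shared over 50% left the median log2 difference at 0.23.

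The contrast can be seen in 2 small complex IV subunits, both encoded by short reading frames. Cox7c (chr13:86044816-86046904, minus strand) averaged 2.25 ± 0.724 CPM in f/f and 2.16 ± 0.297 in ECKO, and Cox8a (chr19:7215158-7217616, minus strand) averaged 73.9 ± 4.75 and 91.7 ± 18.9 CPM. Their coding sequences from GENCODE M21, without the stop codon, follow, with bases that lie in a run of 50 shared with another gene in capitals. All 189 bases of Cox7c do, and 0 of the 207 bases of Cox8a.
Cox7c: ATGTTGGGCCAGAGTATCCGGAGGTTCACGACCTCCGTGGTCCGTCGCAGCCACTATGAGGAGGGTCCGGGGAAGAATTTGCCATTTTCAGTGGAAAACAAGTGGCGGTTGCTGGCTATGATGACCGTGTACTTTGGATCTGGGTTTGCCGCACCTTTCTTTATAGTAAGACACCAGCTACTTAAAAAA
Cox8a: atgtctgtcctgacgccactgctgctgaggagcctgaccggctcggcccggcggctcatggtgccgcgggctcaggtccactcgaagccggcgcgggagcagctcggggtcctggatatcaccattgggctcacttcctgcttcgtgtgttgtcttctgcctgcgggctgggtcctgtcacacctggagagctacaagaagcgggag

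**Figure D5:**
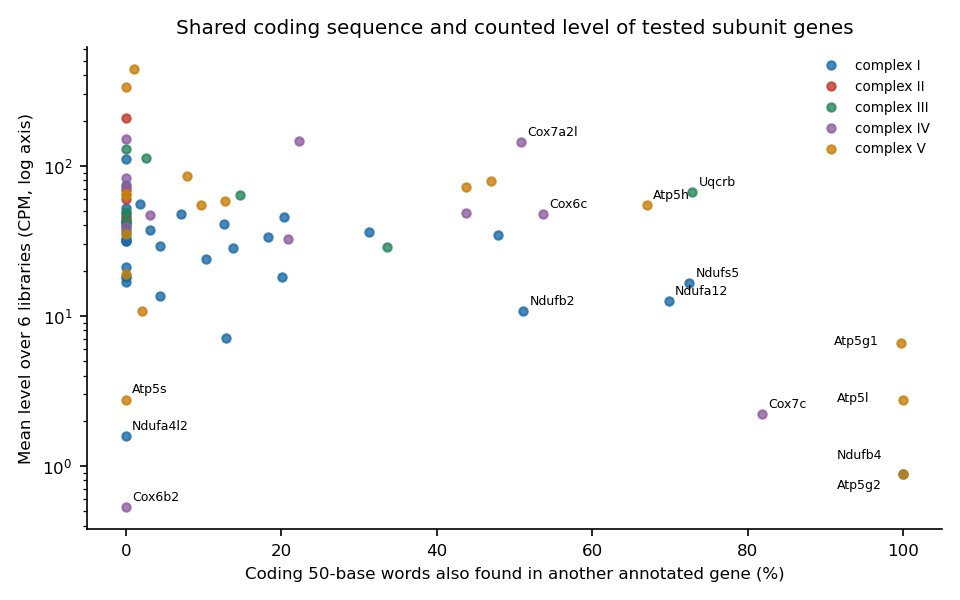
Mean level over all 6 libraries (TMM CPM, log axis) of each tested subunit gene against the share of its coding runs of 50 bases that also occur in another annotated gene. The 5 genes at over 80% lie between 0.880 and 6.62 CPM, below most genes that share none.

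Promoters of oxidative phosphorylation genes are known for binding sites of NRF1, GABP (also called NRF2) and YY1, factors that link nuclear genes to mitochondrial content. RefSeq promoter windows (GRCm38.p6, 250 bases before to 50 after the start) were matched to 69 of the 84 members, and a gene was counted if any of its annotated starts held the letters. The NRF1 consensus of 10 letters, with any base at its sixth place, was found on either strand in 17 members (24.6%), beside 5.19% of all 27025 genes with a window. CCGGAAG (GABP) was found in 16 members (23.2%), beside 9.93%, and AAGATGGCG (YY1) in 8 (11.6%), beside 1.64%. The 27025 genes include many not tested here, while most members were tested, so the 2 sets are unlike. The letters of the GABP and YY1 motifs can overlap. A match is a string of letters and not a measured site. For members with and without each motif, the medians of the log2 difference were 0.23 and 0.24 for NRF1 and 0.28 and 0.23 for GABP. They were 0.33 and 0.23 for YY1, where only 8 members carried the motif.

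To let the motifs be read, 1 upstream stretch is shown for each complex, from the named member with the highest log2 difference among those with an NRF1 or GABP match. Printed are the 180 bases before the RefSeq start, 5′ to 3′ along the gene, with NRF1 and GABP matches in capitals. Where several annotated starts of a gene had a match, the start nearest to a match was taken, so the distances depend on that choice. The Ndufa5 stretch lies wholly, and the others partly, within the span of the gene as counted. Ndufa5 and Atp5k carry an NRF1 match each, 26 and 50 bases before the start. Sdha carries 3 NRF1 matches, 98, 55 and 10 bases before the start. Uqcr11 carries a GABP match 66 bases before the start. Cox6a1 carries NRF1 matches 162 and 117 bases before the start and a GABP match, on the opposite strand, 16 bases before it.
Ndufa5, chr6:24527691-24527870, minus strand: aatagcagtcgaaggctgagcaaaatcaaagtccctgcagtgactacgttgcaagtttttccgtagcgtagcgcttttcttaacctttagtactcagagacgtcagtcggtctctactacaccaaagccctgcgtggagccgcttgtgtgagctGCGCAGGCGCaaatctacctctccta
Sdha, chr13:74350241-74350420, minus strand: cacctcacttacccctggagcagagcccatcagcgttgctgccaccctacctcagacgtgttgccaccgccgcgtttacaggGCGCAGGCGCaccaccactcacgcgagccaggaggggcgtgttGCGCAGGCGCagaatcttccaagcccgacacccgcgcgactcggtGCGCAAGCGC
Uqcr11, chr10:80406822-80407001, minus strand: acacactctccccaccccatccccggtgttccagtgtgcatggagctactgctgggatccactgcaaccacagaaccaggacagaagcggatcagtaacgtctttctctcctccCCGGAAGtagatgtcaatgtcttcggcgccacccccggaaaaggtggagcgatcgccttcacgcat
Cox6a1, chr5:115348959-115349138, minus strand: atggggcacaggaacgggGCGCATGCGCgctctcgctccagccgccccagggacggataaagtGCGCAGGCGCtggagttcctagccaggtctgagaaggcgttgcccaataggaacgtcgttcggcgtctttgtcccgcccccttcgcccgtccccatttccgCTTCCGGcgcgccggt
Atp5k, chr5:108434400-108434579, minus strand: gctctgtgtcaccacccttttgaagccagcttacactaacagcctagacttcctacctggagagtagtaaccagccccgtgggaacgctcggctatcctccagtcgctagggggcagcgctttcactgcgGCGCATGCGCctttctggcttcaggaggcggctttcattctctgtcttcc

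The other genes of the pathway were read from lists. The 13 mitochondrial genome mRNAs, which encode the remaining subunits of complexes I, III, IV and V, had a median log2 difference of 0.91. All 13 lay above 0, beside 51.4% of all genes, but 0 passed (edgeR). With a higher value, 7 of the 13 had an unadjusted edgeR p under 0.05, beside 10.4% of all genes. Together they stood at 246656, 122823 and 99050 CPM in f/f and at 388722, 196723 and 253595 CPM in ECKO, so f/f library 1 lay above ECKO library 2. The log2 ratio of these sums was 0.84, and 0.62 with total count scaling. Counts of these mRNAs were 61.5, 28.9 and 25.5 times the counts of the nuclear members in f/f and 88.9, 37.9 and 58.5 times in ECKO, again with overlap. ECKO library 2, where the nuclear members were highest, had the lowest ratio of the ECKO libraries.

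Genes that assemble complexes I to IV had medians close to that of the subunits. For complex I, 14 assembly factors were tested, 0 passed in either direction, and the median log2 difference was 0.21. The 24 factors of complex IV also gave 0 calls and a median of 0.21. Neither did any of the 4 factors of complex II (median 0.20), the 6 of complex III (0.22), the 3 of complex V (-0.02) or the 6 other nuclear subunits (0.21) pass. Among 16 electron carriers and enzymes of ubiquinone synthesis 0 passed (median 0.11), as among 20 regulators of mitochondrial biogenesis (0.01). The 80 cytosolic ribosomal protein genes, a set of abundant mRNAs, had 0 calls and a median of -0.05.

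Among 17 citric acid cycle genes, 1 fell and 0 rose (median 0.07). This was Idh2, the mitochondrial NADP-dependent isocitrate dehydrogenase, at 45.04, 48.4 and 46.6 CPM in f/f and 28.0, 25.7 and 21.3 CPM in ECKO. The log2 difference of Idh2 was -0.90 (SE 0.12, edgeR adjusted p = 0.0141), and the call was lost without f/f library 3 (adjusted p = 0.0651) or without ECKO library 1 (0.0509), within a range of 1.74e-07 to 0.0651 over all settings. Among 18 glycolysis genes, 1 fell and 0 rose (median -0.12). This was Slc2a1, the glucose transporter GLUT1, which averaged 13.0 ± 0.542 CPM in f/f and 7.35 ± 0.167 in ECKO. Its log2 difference was -0.82 (SE 0.13, edgeR adjusted p = 0.0241), but the call was kept without f/f library 1 only and lost without any other library (adjusted p up to 0.110).

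Markers of other liver cells moved as follows. In bulk RNA, fewer cells of a type and less RNA per cell cannot be told apart. Of 16 stellate cell markers 8 fell and 0 rose (median log2 difference -1.11), and their sum was 1975 to 3364 CPM in f/f and 1010 to 1334 CPM in ECKO. Of 22 hepatocyte markers, 1 fell (Cyp3a11, a cytochrome P450) and 0 rose. The log2 difference lay above 0 for 16 of the 22 (median 0.44), beside 51.4% of all genes. An unadjusted edgeR p under 0.05 with a higher value was found for 3 of the 22, a share not below the 10.4% of all genes. The hepatocyte marker sum was 2620, 1428 and 1618 CPM in f/f and 2465, 3012 and 1602 CPM in ECKO. ECKO library 2 had the highest hepatocyte marker sum of its group as well as the highest subunit levels. The f/f libraries went the other way: f/f library 2 had the highest subunit levels of its group and the lowest hepatocyte marker sum. Cytosolic ribosomal protein genes summed to 10678, 11607 and 10665 CPM in f/f and 9627, 12257 and 10054 CPM in ECKO, highest in library 2 of each group. Of 12 tested Kupffer cell and macrophage markers 0 passed (median -0.21), with sums of 71.9 to 182 CPM in f/f and 81.6 to 112 in ECKO. Of 6 tested lymphocyte markers 2 fell (median -2.03, sums of 10.9 to 26.6 against 5.98 to 9.79 CPM), and of 7 cholangiocyte markers 1 fell (median -1.20, sums of 218 to 615 against 143 to 192 CPM). Of 5 tested erythroid markers 1 rose, Alas2, a heme synthesis enzyme. The other 4, globin genes, had lower values in all ECKO libraries than in all f/f libraries and did not pass, and the median of the 5 was -1.60 (sums of 7.44 to 15.8 against 9.29 to 14.05 CPM). Of 18 LSEC markers (median 0.28) 2 rose, Clec1b and Pecam1, endothelial surface proteins, but neither passed with total count scaling (edgeR adjusted p = 0.175 and 0.378, the largest of all settings for Clec1b being 0.218 and for Pecam1 0.429). Cyp3a11 and Alas2 lost their calls only without ECKO library 1 (edgeR adjusted p = 0.0589 and 0.0592). The part of these cell types in the subunit levels was not tested.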

How the data were processed

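RNA of 6 LSEC libraries, 3 per genotype, was measured by sequencing. The authors deposited raw counts per gene and FPKM values, per the file headers. The FPKM values equalled count divided by gene length and library total. The submitters' processing notes name HISAT2 2.0.4 and StringTie 1.3.0 with no role for either, and list mm10 and GRCm38.p4 as builds. The sources used here do not give the counter, the strand setting or the filters. Of the 34745 genes, 14663 had no count.

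Groups came from the genotype labels. Counts were tested with edgeR 4.0.16 (R 4.3.3; TMM, filterByExpr with a minimum count of 10 and total of 15, robust quasi-likelihood F-test, two-sided, Benjamini-Hochberg over 13692 genes, threshold 0.05). Values are means ± SD of TMM-scaled CPM. An exact permutation test of 3 against 3 cannot go below 0.1. Alternatives were total count and RLE scaling, TMM without mitochondrial genes, DESeq2 1.42.0, limma 3.58.1 (voom, and log2(FPKM + 1) or log2(FPKM + 0.1)), other filters, a replicate block and leaving out each library. The script was tested on simulated data. Intervals for counts of 0 cover counting error only.

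The members and lists were chosen with earlier results of these data known. Named members were those with the highest and lowest difference in each complex, the smallest p in complexes I, IV and V, the highest FPKM, catalytic or core subunits and isoform pairs; from the lists, genes that passed. Ndufb4 and Cox7c were named after their shared sequence was seen, and Ndufa8 and Ndufb9 after their values were seen. Ndufb1 and protein sequences were not analysed here.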

Additional observations from a re-analysis of the deposited data

How the results depend on the processing

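As in the edgeR result, 0 members were called with RLE scaling, TMM without mitochondrial genes, limma-voom, the stricter filter (73 members tested) and the replicate block. DESeq2 called 6 members higher and 1 lower, with 470 genes higher and 1038 lower over all genes; limma-voom called 191 genes lower. Without the filter on low counts 1 member was called higher. Total count scaling called 1 member lower, with 63 genes higher and 1209 lower. On log2(FPKM + 1), 1 member was called lower and 39 genes higher; on log2(FPKM + 0.1), 1 member lower, 49 genes higher and 698 lower.

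The median log2 difference of the members was -0.0022 with total count scaling, -0.010 on log2(FPKM + 1) and -0.011 on log2(FPKM + 0.1). In the same order it was 0.028, 0.023 and 0.024 for complex I, -0.093, -0.096 and -0.10 for complex II, -0.046, -0.054 and -0.057 for complex III, 0.027, 0.014 and 0.021 for complex IV and -0.045, -0.053 and -0.056 for complex V. The log2 ratio of summed levels, as FPKM and with total count scaling, was 0.045 and 0.013 for complex I, -0.12 and -0.11 for complex II, 0.030 and -0.019 for complex III, 0.0037 and 0.011 for complex IV and -0.072 and -0.097 for complex V. FPKM is also scaled by the total count.

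Leaving out each library in turn gave 0 to 1 members called higher, 14 to 246 genes higher and 21 to 766 lower. Medians ran from 0.14 to 0.29 for the members, 0.19 to 0.33 for complex I, 0.10 to 0.20 for complex II, 0.17 to 0.25 for complex III, 0.14 to 0.35 for complex IV and 0.10 to 0.21 for complex V. Summed levels ran from 0.15 to 0.29, 0.07 to 0.19, 0.15 to 0.25, 0.09 to 0.31 and 0.06 to 0.17 for complexes I to V.

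Same-numbered libraries had correlations of their deviations of 0.0946, 0.152 and -0.0520. Not every library correlated best with its own number. With 3 libraries per group these values cannot show whether the numbers pair the libraries. With the replicate block, 0 members and 416 genes were called, and the median of the members was 0.23. Median differences without members under 5 CPM (0.25) and without members sharing over 50% of their coding runs (0.23) were chosen after seeing the data. Moving Ndufa4 and Ndufa4l2 to complex IV left the medians of complexes I and IV at 0.26. With 3 libraries per group, a miss of the threshold does not show equal levels.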
